A study of Mus musculus with 10 samples.

Results

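Hepatocytes regenerate NADPH, the reductant for glutathione and thioredoxin recycling, through the pentose phosphate pathway and through cytosolic malic enzyme and isocitrate dehydrogenase. The transcripts of 8 enzymes of this supply were followed here, chosen by gene symbol: G6pdx, Pgls and Pgd of the oxidative branch, Rpia, Taldo1 and Tkt of the non-oxidative branch, and Me1 and Idh1 outside the pathway. They are 8 of the 21939 genes with a row of counts, and all 8 had enough counts to be tested. The oxidative branch turns glucose 6-phosphate into ribulose 5-phosphate and yields NADPH on the way, while the non-oxidative branch interconverts sugar phosphates between ribose and the glycolytic intermediates. Malic enzyme 1 and isocitrate dehydrogenase 1 make NADPH from malate and isocitrate in the cytosol, where it is also consumed by fatty acid and sterol synthesis. Several of these genes are known targets of Nrf2, the transcription factor of the antioxidant response, whereas p65 is the transactivating subunit of NF-κB.

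The study asked how loss of either factor, or of both, changed the transcriptome of hepatocytes. Male mice of C57BL/6J background, between 8 and 9 weeks old, all received an adeno-associated virus of serotype 8 that carried Cre under the hepatocyte-specific thyroxine-binding globulin promoter (AAV8Cre). RNA of freshly isolated hepatocytes was sequenced on day 12 after injection. Control mice were wild type and received the same virus, so that they had Cre but no floxed allele. Nrf2 KO mice carried floxed Nrf2, p65 KO mice floxed p65, and DKO mice floxed alleles of both genes. There were 3 control, 2 Nrf2 KO, 2 p65 KO and 3 DKO libraries, numbered by mouse in the labels. Deletion depends on virus entering the hepatocyte, and cells of other types that remained in the preparation kept their alleles.

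The libraries held between 33707165 and 49897382 estimated counts. The total transcript of Nfe2l2, which encodes Nrf2, was not lower in the libraries labelled Nrf2 KO but higher (log2 fold change 1.21, SE 0.158, adjusted p = 0.00488), and likewise in those labelled DKO (1.02, SE 0.142, adjusted p = 0.00347), in edgeR's quasi-likelihood test with Benjamini-Hochberg adjustment. Rela, which encodes p65, differed from control by -0.07 in p65 KO (SE 0.138, adjusted p = 0.765) and by -0.000945 in DKO (adjusted p = 0.998). Counts of whole genes do not show whether the floxed exons were lost, and the genotypes below are those of the labels. The study itself reported efficient deletion of both genes in hepatocytes on day 12, by RT-qPCR and by Western blot. Of 10 Nrf2 target genes, 6 fell in the libraries labelled Nrf2 KO, where 0.594% of all genes fell. In those labelled DKO 8 fell, where 2.84% of all genes did. In those labelled p65 KO 3 fell (6.77% of all genes) and 1 rose (8.13%). Gclc stood at -1.33 in p65 KO and at -1.21 in Nrf2 KO, so its fall was not limited to floxed Nrf2. Summed hepatocyte markers (10 genes, Alb among them) lay between 3608728 and 5688702 normalized counts over all 10 libraries. Alb alone held 2472214 to 4159525, so these sums mostly follow that gene. Markers of some other liver cells were higher in p65 KO. All 12 Kupffer cell and macrophage genes rose there, where 8.13% of all genes rose. Their summed levels were 4470 to 6083 normalized counts, against 379 to 957 in control, 264 to 815 in Nrf2 KO and 1662 to 2924 in DKO. The sum of B cell markers was lower in p65 KO, with 58.9 to 76.6 against 86.1 to 392 in control. Ighm alone held 44.7 to 73.7 in p65 KO and 85.0 to 391 in control, so this sum mostly follows that gene. Of 4 tested B cell genes, 0 passed edgeR's test in p65 KO, and their median log2 fold change was 2.14. Sums of T and NK cell, erythroid and cholangiocyte markers in p65 KO overlapped control.

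In control, Idh1 and Me1 were the most abundant of the 8 transcripts and G6pdx and Rpia the scarcest. Levels per kb of transcript, which allow genes to be compared with each other, were 5575 ± 205 normalized counts per kb (SD, n = 3) for Idh1 in control. Me1 followed with 3732 ± 558, Taldo1 with 2846 ± 194, Tkt with 1662 ± 114, Pgls with 949.6 ± 105 and Pgd with 506 ± 64.0 normalized counts per kb (SD, n = 3 each). Rpia stood at 94.8 ± 18.0 and G6pdx, which catalyzes the first and committed step of the oxidative branch, at 42.7 ± 20.9. The per-library ranges of neighbors in this order did not overlap in control. Me1 gave up the second place in all 3 knockout genotypes, where Taldo1 stood above it. In p65 KO the libraries of Me1 overlapped those of both Taldo1 and Tkt, and in DKO those of Me1 and Tkt overlapped.

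**Figure D1:**
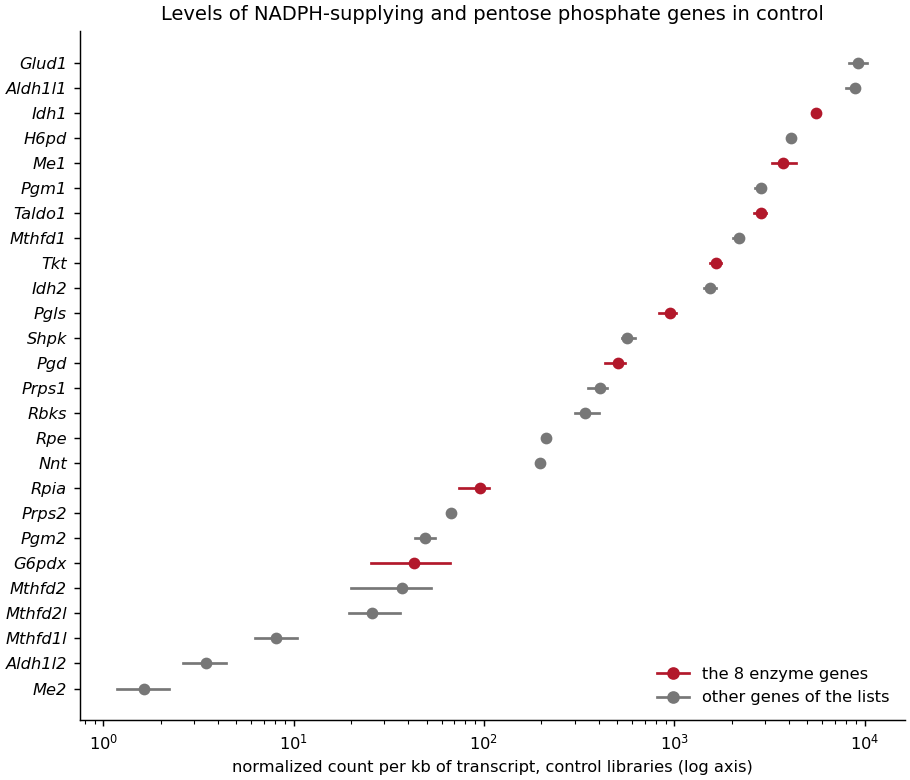
Levels of the 8 enzyme genes (red) and of other genes of the pentose phosphate pathway and of NADPH supply (gray) in the 3 control libraries, in normalized counts per kb of transcript on a log axis. Points are means and lines run from the lowest to the highest library. Idh1 (5575) and Me1 (3732) stand near the top, below Glud1 and Aldh1l1, and G6pdx (42.7) stands near the bottom.

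Among other sources of NADPH, glutamate dehydrogenase Glud1 (9276 ± 997 normalized counts per kb, SD, n = 3) and the folate enzyme Aldh1l1 (8866 ± 799) were more abundant in control than any of the 8 genes. H6pd, which runs the first oxidative steps inside the endoplasmic reticulum, stood at 4122 ± 103 normalized counts per kb and so near Me1. Idh2, the mitochondrial counterpart of Idh1, stood at 1538 ± 116. Me2, a mitochondrial malic enzyme, was near the bottom at 1.63 ± 0.529.

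Me1 and Pgls carried the calls among the 8, and the sequence just before the start of the canonical transcript of each is given here because the studied factors bind DNA. The bases are read in the direction of transcription, end at the base before that start, come from GRCm39 with GENCODE M39 starts, and have every CpG in capitals. Me1 lies on chromosome 9 (minus strand, chr9:86462646-86578104) and Pgls on chromosome 8 (plus strand, chr8:72044202-72053768). The canonical transcript of Pgls starts at base 72044769, inside the annotated span of the gene, which opens further upstream, so its window lies within that span.
Me1, chr9:86578105-86578354, minus strand: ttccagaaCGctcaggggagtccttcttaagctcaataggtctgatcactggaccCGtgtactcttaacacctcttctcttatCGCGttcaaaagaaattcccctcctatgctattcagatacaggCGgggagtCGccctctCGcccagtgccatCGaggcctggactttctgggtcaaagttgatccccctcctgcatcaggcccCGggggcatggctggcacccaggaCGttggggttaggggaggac
Pgls, chr8:72044519-72044768, plus strand: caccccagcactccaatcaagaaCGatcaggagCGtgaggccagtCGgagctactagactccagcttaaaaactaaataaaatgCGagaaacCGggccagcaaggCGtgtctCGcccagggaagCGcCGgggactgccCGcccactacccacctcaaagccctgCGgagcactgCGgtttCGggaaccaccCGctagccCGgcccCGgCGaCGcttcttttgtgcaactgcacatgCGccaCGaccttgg
The window of Me1 holds 10 CpG and that of Pgls 20, against a median of 12 over 13637 tested genes. In 300 bases around the start, searched on both strands, none of the 8 genes held the antioxidant response element TGACNNNGC (found in 13.5% of the 13637 promoters), the NF-κB motif (9.85%), the sterol element TCACNCCAC (1.36%) or the E-box CACGTG (9.68%). None of these motifs contains another, and the result says only that their letters are not in these windows.

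Me1, the cytosolic malic enzyme, was the one gene of the 8 that was lower in all 7 knockout libraries than in any control library. Over all genes tested, 3.77% had all 7 knockout libraries below all 3 control libraries. The control libraries held 14897, 18116 and 13605 normalized counts of Me1. Those labelled Nrf2 KO held 6538 and 7794, and those labelled p65 KO 6041 and 11020.5. Those labelled DKO held 5428, 2900.5 and 9435.5 normalized counts. The highest knockout library was thus below the lowest control library, but the 3 knockout genotypes overlapped each other. As a share of control, mean Me1 was 46.1% in Nrf2 KO, 38.1% in DKO and 54.9% in p65 KO.

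In DKO against control, Me1 fell by 1.39 on the log2 scale (SE 0.351, 95% interval -2.17 to -0.62, adjusted p = 0.0481, edgeR's quasi-likelihood test with Benjamini-Hochberg adjustment). It was the only one of the 8 to pass in DKO against control, where 5.45% of all genes passed. This call sat at the threshold: it was lost on leaving out any single library other than DKO 3, with adjusted p between 0.05 and 0.126, and also when the mean count per library had to reach 10 (adjusted p = 0.0512). Leaving out an Nrf2 KO or p65 KO library kept the log2 fold change at -1.39, since only the estimate of the spread draws on those libraries. Without DKO 2, the lowest library, the log2 fold change of Me1 was -1.06 (adjusted p = 0.0721), and without DKO 3, the highest, it was -1.90 (adjusted p = 0.0103). The change in Nrf2 KO was -1.12 (SE 0.392, 95% interval -1.98 to -0.25, adjusted p = 0.379) and did not pass the test. That in p65 KO was -0.86 (SE 0.392, 95% interval -1.73 to -0.00136, adjusted p = 0.167). All 3 of these comparisons share the control libraries. DKO did not differ from Nrf2 KO (-0.28, SE 0.392, adjusted p = 0.785) or from p65 KO (-0.53, SE 0.392, adjusted p = 0.449) in Me1 by the test, with intervals of -1.14 to 0.59 and -1.39 to 0.34. An interaction compares the effect of Nrf2 loss with and without p65, and for Me1 it was 0.59 (SE 0.554, adjusted p = 0.68).

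**Figure D2:**
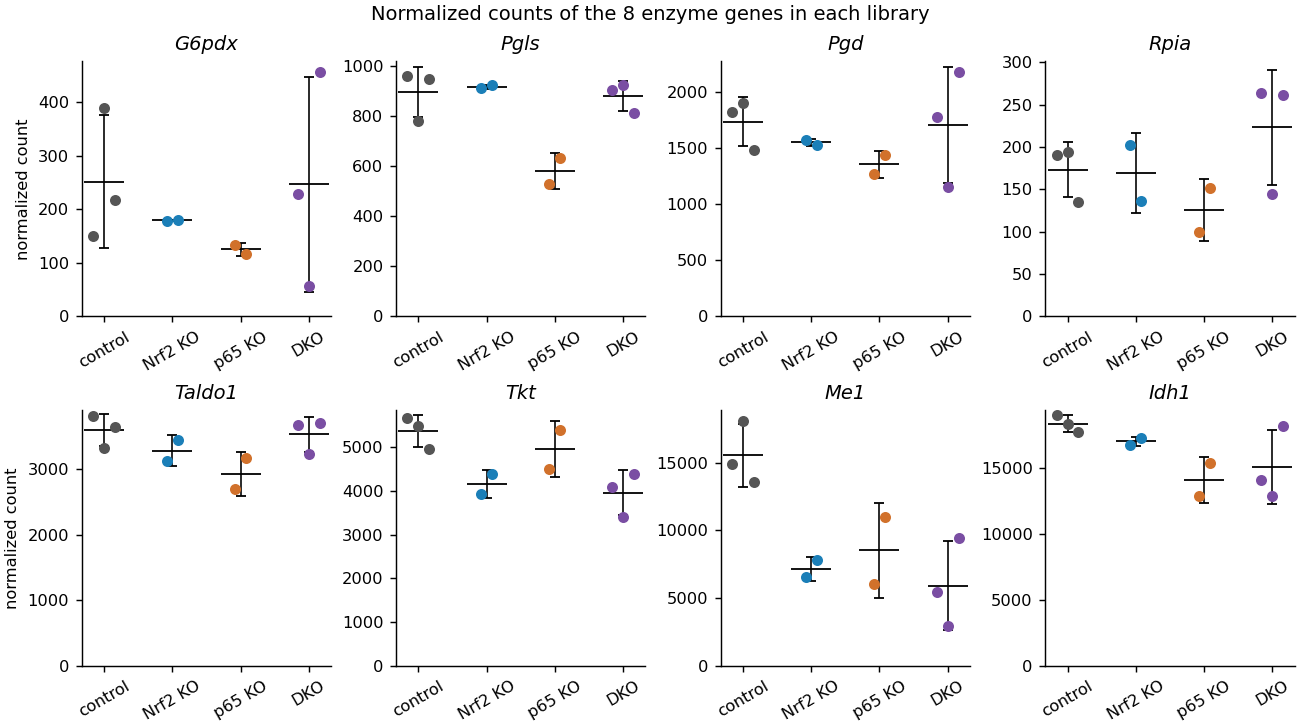
Normalized counts of the 8 enzyme genes in each library (points), with the mean of each genotype (horizontal line) and its SD (bars), on linear axes from 0. Me1 is below the lowest control library (13605) in all 7 knockout libraries, Pgls is low in the 2 p65 KO libraries (530 and 631), and G6pdx runs from 56.1 to 457 within DKO.

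Idh1, the cytosolic isocitrate dehydrogenase and the most abundant of the 8, moved less. The control libraries held 19048, 18376 and 17699 normalized counts, those labelled Nrf2 KO 16775 and 17268, and those labelled p65 KO 12868 and 15350.2. The DKO libraries held 14090.5, 12838 and 18202. Both single knockouts lay below control without overlap, while DKO 3 lay within the control range. The log2 fold changes of Idh1 were -0.11 in Nrf2 KO (SE 0.152, adjusted p = 0.899), -0.38 in p65 KO (SE 0.152, adjusted p = 0.117) and -0.29 in DKO (SE 0.136, adjusted p = 0.239), none past the test.

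Pgls, the lactonase that performs the second step of the oxidative branch, fell in p65 KO and in no other comparison with control. Control libraries held 959.6, 782 and 948 normalized counts, and those labelled Nrf2 KO 912 and 923. Those labelled p65 KO held 530.3 and 631, and those labelled DKO 906, 925 and 811. The 2 p65 KO libraries were the lowest of the 10, and the other 3 genotypes overlapped. Pgls fell by 0.63 on the log2 scale in p65 KO (SE 0.131, 95% interval -0.92 to -0.34, adjusted p = 0.014). It was the only one of the 8 past the test there, against 14.9% of all genes. The call was lost without p65 KO 1, the lower library (-0.51, adjusted p = 0.122), where the remaining p65 KO library was assumed to vary like the other genotypes, and held in the other fits that left out 1 library. In Nrf2 KO the change of Pgls was 0.03 (SE 0.13, 95% interval -0.25 to 0.32) and in DKO -0.03 (SE 0.117, 95% interval -0.28 to 0.23).

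Compared directly, Pgls was higher in DKO than in p65 KO by 0.60 on the log2 scale (SE 0.132, 95% interval 0.31 to 0.89, adjusted p = 0.0352), and 4.11% of all genes passed in that comparison. Without p65 KO 1 the difference was 0.48 (adjusted p = 0.205) and without p65 KO 2 it was 0.73 (adjusted p = 0.0856), with the remaining p65 KO library assumed to vary like the other genotypes. It was 0.58 without DKO 1 (adjusted p = 0.0918) and 0.56 without DKO 2 (adjusted p = 0.0593). Leaving out Nrf2 KO 1 or 2, which bear only on the estimate of the spread, kept it at 0.60, with adjusted p of 0.0561 and 0.0567. With the libraries scaled to equal totals, which shifts the median of all genes by -0.27 in this comparison, it was 0.33 (adjusted p = 0.117). The interaction for Pgls was 0.57 (SE 0.185, 95% interval 0.16 to 0.98, unadjusted p = 0.0114, adjusted p = 0.236, edgeR's quasi-likelihood test), so that Nrf2 loss was not shown to act differently on Pgls with and without p65. Markers of some other cells moved with the p65 KO libraries, as given above for macrophages. All 8 sinusoidal endothelial genes and 6 of 8 stellate cell genes also rose there, where 8.13% of all genes rose. Their summed levels were 3297 to 4300 against 628 to 1389 in control, and 1652 to 1688 against 145 to 344. Their part in the lower Pgls was not tested, and in such bulk preparations fewer cells of a type and less RNA per cell cannot be told apart. Hepatocyte markers summed to between 4133389 and 4361330 in p65 KO, within the control range, but Alb alone averaged 2971689 of this. By edgeR's test 2 of these 10 markers rose in p65 KO, where 8.13% of all genes rose, and 0 fell. The 2 were Hnf4a (0.46, adjusted p = 0.0222) and Cps1 (0.56, adjusted p = 0.0479). Pgls shares 16.5% of its 31-base words with Niban3, which overlaps it on the same strand and held between 1.02 and 36.8 normalized counts.

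G6pdx, glucose 6-phosphate dehydrogenase, was scarce and varied widely among mice of 1 genotype. Control libraries held 150 normalized counts in control 1, 389 in control 2 and 217 in control 3. The libraries labelled Nrf2 KO held 179 and 180.3, those labelled p65 KO 134 and 116, and those labelled DKO 229, 56.1 and 457. Within DKO the highest library was thus 8.14 times the lowest, and the p65 KO libraries were below all 3 control libraries. The log2 fold changes of G6pdx were -0.49 in Nrf2 KO (95% interval -1.86 to 0.87), -1.01 in p65 KO (-2.40 to 0.38) and -0.03 in DKO (-1.25 to 1.19), with adjusted p of 0.884, 0.309 and 0.981. These intervals reach past a change of 2-fold in one or both directions. The pooled SD of G6pdx within genotypes was 0.971 on the log2 scale, and 99.0% of 10185 genes had a smaller one. G6pd2, a retrogene copy that shares 5.85% of the 31-base words of G6pdx, was at 0 in every library.

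Pgd, which carries out the second NADPH-yielding step, held 1824, 1901 and 1488 normalized counts in control and 1574 and 1530.1 in Nrf2 KO. It held 1271 and 1444 in p65 KO and 1779.9, 1159 and 2184 in DKO. The p65 KO libraries were below control, and the DKO libraries reached from below to above it. Its changes were -0.16 in Nrf2 KO (adjusted p = 0.892), -0.36 in p65 KO (adjusted p = 0.289) and -0.02 in DKO (adjusted p = 0.958).

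Tkt, the transketolase that moves 2-carbon units in the non-oxidative branch, had lower counts than control in every library of both genotypes that carried floxed Nrf2. Control libraries held 5668, 5480.3 and 4959 normalized counts, and those labelled p65 KO 4500 and 5407. Those labelled Nrf2 KO held 3936 and 4385, and those labelled DKO 4100.4, 3395 and 4396. All 5 libraries with floxed Nrf2 were below all 3 control libraries and below both p65 KO libraries, as for 1.58% of all genes. The log2 fold change of Tkt was -0.37 in Nrf2 KO (SE 0.137, 95% interval -0.67 to -0.07, adjusted p = 0.398) and -0.44 in DKO (SE 0.123, 95% interval -0.71 to -0.17, adjusted p = 0.065), and neither passed edgeR's test. In DKO against p65 KO it was -0.32 (SE 0.137, adjusted p = 0.196), and -0.59 (adjusted p = 0.0181) with equal totals. In p65 KO against control Tkt stood at -0.12 (SE 0.137, adjusted p = 0.603).

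Taldo1, the transaldolase that moves 3-carbon units, held between 3336 and 3819 normalized counts in control, 3124 and 3454 in Nrf2 KO, 2696 and 3175 in p65 KO, and 3234 to 3706 in DKO. The p65 KO libraries were below every other genotype except Nrf2 KO 1, which held 3124. Its log2 fold change in p65 KO was -0.29 (SE 0.119, 95% interval -0.56 to -0.03, adjusted p = 0.119), against -0.13 in Nrf2 KO (adjusted p = 0.827) and -0.02 in DKO (adjusted p = 0.915). Rpia, the isomerase that makes ribose 5-phosphate, held 135 to 194 normalized counts in control, 136 and 203 in Nrf2 KO, 99.6 and 151 in p65 KO, and 145 to 264 in DKO. Every genotype of Rpia overlapped control, with changes of -0.04, -0.46 and 0.37 and adjusted p of 0.988, 0.343 and 0.46 in the same order.

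**Figure D3:**
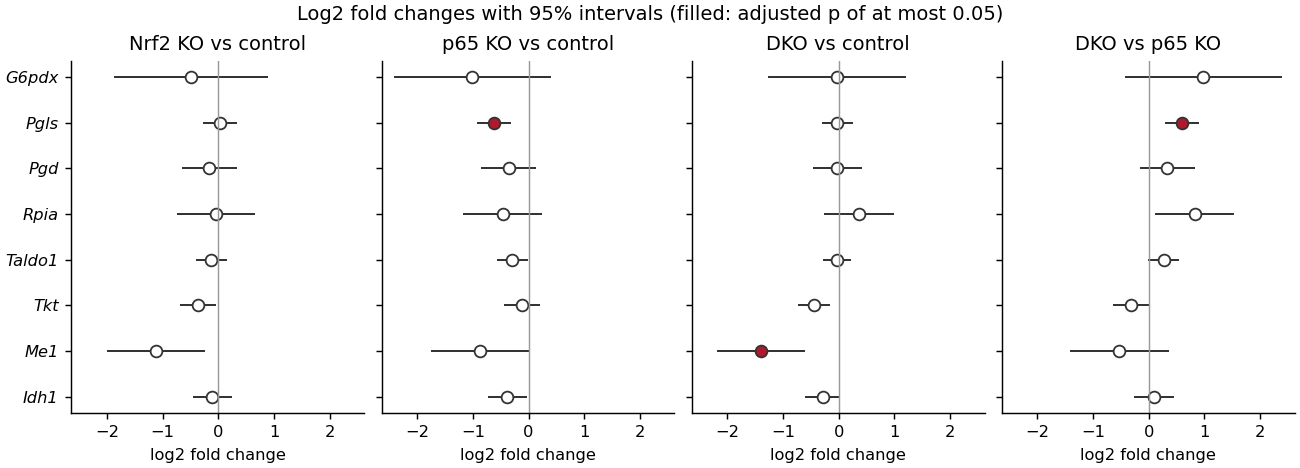
Log2 fold changes of the 8 enzyme genes (points) with 95% intervals (lines) in 4 comparisons, from edgeR; filled points have an adjusted p of at most 0.05. Pgls in p65 KO (-0.63), Me1 in DKO (-1.39) and Pgls in DKO against p65 KO (0.60) are filled, and the intervals of G6pdx are the widest.

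Counted together, none of the 8 genes passed edgeR's quasi-likelihood test in Nrf2 KO against control, where 0.726% of all genes did. At an unadjusted p under 0.05 there were 2 of 8, Me1 and Tkt, against 9.38% of all genes, and DESeq2 and limma-trend also called 0. In p65 KO the log2 fold changes of all 8 were negative, from -1.01 for G6pdx to -0.12 for Tkt, with a median of -0.42, while 49.8% of all genes were negative there and their median was 0.00. With the libraries scaled to equal totals, which shifts the median of all genes by 0.18, Tkt stood at 0.06 in p65 KO. In DKO the median of the 8 was -0.03, with Me1 at one end (-1.39) and Rpia (0.37) at the other. No gene of the 8 passed in DKO against Nrf2 KO, where 0.513% of all genes did. At an unadjusted p under 0.05 there were 0, against 14.4% of all genes, and 0 by DESeq2 and by limma-trend. In the interaction 0 of 8 passed in edgeR (0.469% of all genes), and DESeq2 and limma-trend called 0 too. Pgls and Taldo1, 2 of 8, had an unadjusted p under 0.05 there, against 13.8% of all genes.

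The libraries of Tkt, Me1 and Idh1 (3 of 8) lay below control without overlap in Nrf2 KO, as did 13.6% of all genes. In p65 KO this held for 6 of 8, which were G6pdx, Pgls, Pgd, Taldo1, Me1 and Idh1, against 23.8% of all genes. In DKO it held for Tkt and Me1, 2 of 8, against 13.2% of all genes. No gene of the 8 lay above control without overlap in any genotype. By library, DKO 2 was the lowest of its genotype for 7 of the 8 genes and DKO 3 the highest for 6. The library p65 KO 1 was the lower of its pair for 7 of 8. Me1 had a within-genotype SD of 0.57 on the log2 scale and Rpia one of 0.408, against a median of 0.178 over 10185 genes, while Pgls (0.134) and Taldo1 (0.117) varied less than that median.

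Genes that make and spend NADPH beside these 8 were taken from lists fixed by name. Of 8 tested genes of the pentose phosphate pathway and of ribose use, 1 passed edgeR's test in p65 KO and 0 in Nrf2 KO and DKO. In Nrf2 KO and DKO 1 gene each had an unadjusted p under 0.05, against 9.38% and 22.5% of all genes. DESeq2 and limma-trend called 0 in both. The gene that fell in p65 KO, where 6.77% of all genes fell, was Rpe, the epimerase between both branches (-0.46, SE 0.119, adjusted p = 0.0284), so that 1 of 8 is near the background. H6pd was at -0.44 in Nrf2 KO and -0.42 in DKO, without passing (adjusted p = 0.461 and 0.153). Of 10 tested genes listed by name as other NADPH sources, 3 rose in p65 KO, where 8.13% of all genes rose. The list was set by name, so this is no count of enzymes shown to make NADPH. Whether these 3 supply NADPH in these cells was not tested. In Nrf2 KO 0 of the 10 passed edgeR's test, with 2 at an unadjusted p under 0.05 (9.38% of all genes), 1 by DESeq2 and 0 by limma-trend. Likewise 0 passed in DKO, with 2 at an unadjusted p under 0.05 (22.5% of all genes), 2 by DESeq2 and 1 by limma-trend. Those that rose in p65 KO were Me2 (2.01, adjusted p = 0.0307), the mitochondrial folate enzyme Mthfd1l (1.86, adjusted p = 0.0353) and the mitochondrial transhydrogenase Nnt (1.64, adjusted p = 0.00614). Me2 held at most 43.5 normalized counts in any library, and Mthfd1l at most 144. Nnt, of which C57BL/6J mice are known to carry a defective copy, held 703 to 767 normalized counts in control and 2581.5 and 1941 in p65 KO.

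Among 11 genes that make or move NADP and its partners, Nampt, the first enzyme of NAD salvage, rose in p65 KO (1.40, adjusted p = 0.00333), where the NAD-forming Nmnat1 (-0.53, adjusted p = 0.0162) and the pyruvate carrier subunit Mpc2 (-0.68, adjusted p = 0.0219) fell. Its partner Mpc1 fell in DKO (-0.63, adjusted p = 0.0216). Of 17 tested NADPH-using enzymes, Txnrd1, the cytosolic thioredoxin reductase, fell in Nrf2 KO (-0.73, adjusted p = 0.0469) and in DKO (-0.78, adjusted p = 0.00705). In DKO, glutathione reductase Gsr (-0.91, adjusted p = 0.00304), biliverdin reductase Blvrb (-0.90, adjusted p = 0.00816) and the quinone reductase Nqo1 (-1.35, adjusted p = 0.0126) also fell, and fatty acid synthase Fasn rose (1.38, adjusted p = 0.0359). In p65 KO, Gsr (-0.59, adjusted p = 0.0198) and Txnrd2 (-0.65, adjusted p = 0.00968) fell. Por, which passes electrons from NADPH to cytochrome P450 enzymes, rose there (1.48, adjusted p = 0.00711).

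Of 12 tested genes of fat synthesis, enzymes and regulators together, 4 rose in p65 KO (8.13% of all genes rose) and 5 in DKO (2.61%), and 0 fell in either. Others of the list had negative log2 fold changes without passing, among them Pnpla3 (-1.81), Scd1 (-0.998), Acacb (-0.60), Gpam (-0.14) and Mlxipl (-0.08) in p65 KO, and Scd1 (-0.08) and Gpam (-0.03) in DKO. In Nrf2 KO 0 passed edgeR's test, with 5 at an unadjusted p under 0.05 (9.38% of all genes), 4 by DESeq2 and 0 by limma-trend. Acaca, Pklr, Srebf1 and Thrsp passed in both, with Thrsp, a regulator of fat synthesis, at 1.89 in p65 KO (adjusted p = 0.019) and 2.30 in DKO (adjusted p = 0.0121). Fasn, the fifth in DKO, held 51698, 21704 and 57238 normalized counts there, against 12816.5, 23605 and 13869 in control. DKO 2 was again the lowest of its genotype for Fasn, Thrsp and Srebf1, as it was for Me1 and G6pdx. The median log2 fold change of the 12 was 0.84, 0.39 and 0.97 in Nrf2 KO, p65 KO and DKO, against -0.15, -0.42 and -0.03 for the 8 enzymes and 0.00, 0.00 and 0.02 for all genes tested.

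**Figure D4:**
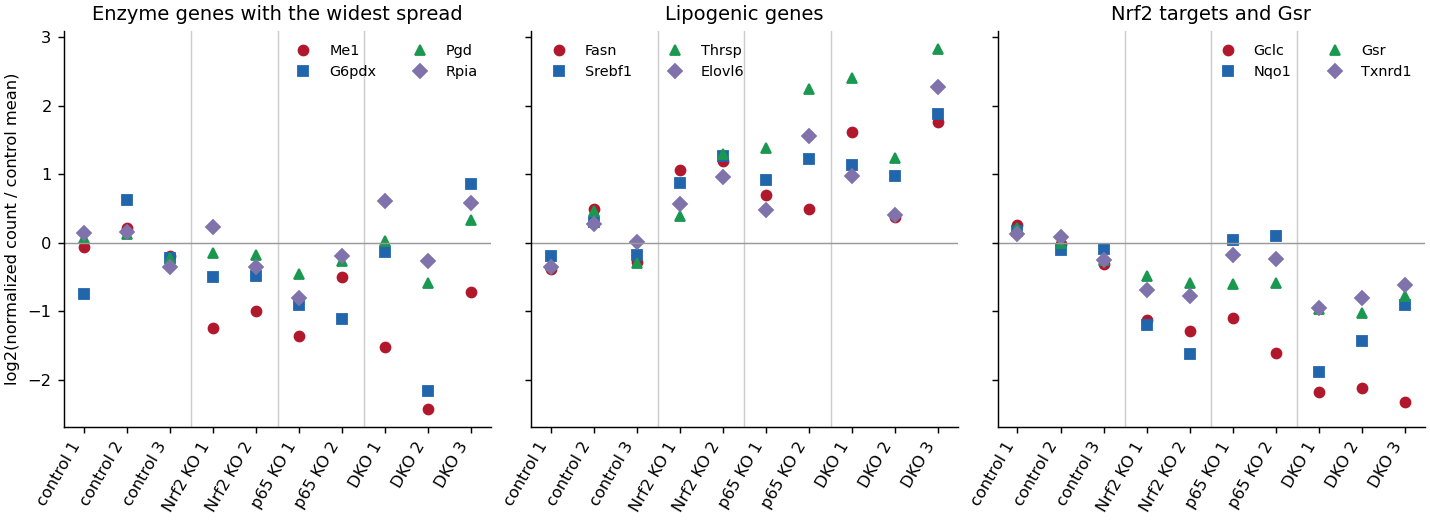
Normalized counts in each library relative to the control mean (log2 scale, 0 is the control mean) for the 4 enzyme genes with the widest spread within genotypes, 4 of the 12 lipogenic genes and 4 genes of glutathione and quinone handling, the last 2 sets chosen after their values were seen. Me1 lies below 0 in all 7 knockout libraries while Srebf1 lies above it, and DKO 2 (Me1 2900.5 normalized counts) sits lowest of its genotype for both.

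The genes whose levels ran most like those of a called gene over the 10 libraries were named by the smallest root mean square difference of centered log2 values. For Me1 these were Gsta3 (0.267), Aldh3a2 (0.273) and Aldh1a1 (0.312), against a median of 0.78 over 10184 genes. Relative to control in DKO, Gsta3 stood at -1.36, Aldh3a2 at -1.18 and Aldh1a1 at -1.07. For Pgls they were Mrpl38 (0.0602), Mrps11 (0.0713) and Tmem147 (0.0728), against a median of 0.337. Their log2 fold changes in p65 KO were -0.56, -0.52 and -0.63. Both sets of changes follow from how the genes were chosen and are a description. Me1 shares 16.2% of its 31-base words with the processed pseudogene Gm7049. Taldo1 shares 10.7% with the protein-coding gene Cep85l and 9.8% with the processed pseudogene Gm17823. The counts of neither pseudogene were analysed here. Counts of Me1 and Taldo1 may therefore hold reads of these other genes.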

How the data were processed

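RNA of hepatocytes of 10 mice was sequenced as stranded, poly-A-selected, single-end libraries. The authors quantified transcripts with Salmon 1.10.3 against GRCm39 and GENCODE M33 and deposited 1 table of estimated counts, as whole numbers for each gene. The table is named as normalized, but its column totals differ and it was treated as estimated counts. The step from transcripts to genes is not given in the sources used here. Every column was matched to a library by name, and 0 were left over.

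The 13641 genes whose counts over all libraries reached 10 in sum entered edgeR 4.0.16 (quasi-likelihood, TMM) in R 4.3.3, in 1 fit of 4 genotypes. The Benjamini-Hochberg adjustment ran over all genes within each comparison, and a gene passed at 0.05. Counts were normalized by dividing by each library's size after TMM and rescaling to the mean size. Levels per kb use the canonical transcript of GENCODE M39, in which 21926 of 21939 identifiers were found. On simulated counts the test recovered 69 to 78% of log2 changes of 1 and 93 to 97% of changes of 2, with 9 to 15 false calls. The changed genes were drawn at random above a minimum mean count. Recovery was not measured for genes that vary as widely as G6pdx, Me1 or Rpia. The replicate numbers were not used as pairs in the main fit. P-values weigh a difference between genotypes against the spread between mice, which is pooled over the 4 genotypes and moderated across genes. The intervals cover no other error. The alternatives were DESeq2 1.42.0, limma 3.58.1, other scalings and filters, a replicate block, fits of only the groups compared, and leaving out each library.

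The 8 genes are named in full, and from other lists every gene past the test in a comparison with control where at most 5 passed per direction. Some genes that this rule would name are not reported here. Members and lists were chosen with earlier results of these data known. One listed gene, Akr1b3, was not matched by name.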

Additional observations from a re-analysis of the deposited data

How the results depend on the processing

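The number of the 8 genes past the test was 0 in Nrf2 KO against control, with 1 (Me1, adjusted p = 0.0179) when only the groups compared were fitted. In DKO against control it was 1, with 2 (Tkt and Me1) by DESeq2 and by scaling to equal totals, and 0 with upper quartile scaling, a mean of at least 10 counts per library, the replicate block and only the groups compared. In DKO against p65 KO it was 1, which was Tkt in place of Pgls with equal totals, with 0 under the replicate block and with only the groups compared. Leaving out 1 library gave 0 to 1 in p65 KO against control, DKO against control and DKO against p65 KO. Adjusted p of Me1 in DKO was 0.0534 with upper quartile scaling, 0.0602 with the replicate block and 0.0675 with only the groups compared, and between 0.0199 and 0.0478 with DESeq2, limma-trend, DESeq2's size factors, equal totals and no filter. Tkt in DKO had an adjusted p of 0.0128 by DESeq2. The replicate numbers did not pair the libraries: same-numbered libraries correlated between -0.22 and 0.11 (median -0.07, 13 pairs), and the block gave 1178 genes in p65 KO in place of 2032. Signs turned for small changes that no fit called. Scaling to equal totals gave 0.0597 for Tkt in p65 KO, and upper quartile scaling 0.0167, 0.0121, 0.0164 and 0.0144 for G6pdx, Pgls, Pgd and Taldo1 in DKO. Leaving out 1 library gave, in DKO, -0.81 to 0.44 for G6pdx, -0.12 to 0.0339 for Pgls, -0.24 to 0.19 for Pgd and -0.0766 to 0.0365 for Taldo1. In Nrf2 KO it gave -0.35 to 0.23 for Rpia and -0.0565 to 0.0847 for Pgls, and in p65 KO -0.25 to 0.011 for Tkt. Over all genes the main test passed 99, 2032 and 743 genes in Nrf2 KO, p65 KO and DKO, and DESeq2 passed 319, 2678 and 1462. For scarce genes such as G6pdx and Rpia the intervals are wide, and 2 libraries a genotype limit every single knockout. The cause of these differences was not tested.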
